A study of Homo sapiens with 24 samples.

Results

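NF-kB transcripts were followed in whole-genome-doubled triple-negative breast cancer cells through 10 genes: the subunits NFKB1, NFKB2 and RELB, the feedback regulators NFKBIA, TNFAIP3 and BIRC3, and the targets TNFAIP2, ICAM1, CXCL1 and IL6. They were picked by gene name from the 29744 genes of the count table, and each name belonged to 1 row. RNA came from HCC1806 and MDA-MB-231, established lines of triple-negative breast cancer, and was read by TAGseq, which sequences the 3′ ends of polyadenylated transcripts. In each line, populations that had doubled their genome by cell fusion, by mitotic slippage (exit from mitosis without division) or by cytokinesis failure were set against the parental aneuploid control. The doubled cells had been sorted by FACS and expanded, and all cells, controls included, grew for 48 hours in 6-well plates with no further agent. The 8 groups held 3 biological replicates each. The design names 1 derived population per route and line, so route and population cannot be told apart, and the 3 comparisons with control in a line share the same 3 control libraries.

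NF-kB is a family of dimeric transcription factors held inactive in the cytoplasm by inhibitor proteins. Signals from TNF or interleukin-1 receptors activate the IKK kinases, which mark the inhibitor IκBα for destruction and free the canonical dimers. A slower, non-canonical route through the kinase NIK processes the NFKB2 precursor and frees dimers with RELB. The dimers then switch on inflammatory and survival genes together with their own inhibitors, so that the response is limited by feedback. In basal-like breast cancer cells the pathway is known for driving cytokine and adhesion genes.

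The stretch just before the transcription start is shown for 6 of the genes, since feedback and target genes of this pathway are known to carry kB sites there. RefSeq promoter windows (GRCh38.p14, 250 bases before to 50 after the start) were found for 9 of the 10 genes; RELB was not among them. The kB form GGGA-N-TTTCC, where N is any base, was searched on both strands and occurred in the windows of TNFAIP3, NFKBIA, NFKB1, NFKB2, CXCL1 and IL6. That is 6 of 9 genes, against 0.678% of the 27305 genes with a window. The wider kB consensus, which includes this form, was found in 7 of 9 genes, with BIRC3 added, against 13.3% of genes. As the genes were picked as members of a pathway known for such sites, these shares only describe the list. The lines below give the 150 bases before the start, 5′ to 3′ on the gene's strand, with the match to GGGA-N-TTTCC or its reverse complement in capitals; no match to this form was found in ICAM1. For NFKB1 the first of 2 windows is shown.
TNFAIP3 (chr6:137867109-137867258, plus strand): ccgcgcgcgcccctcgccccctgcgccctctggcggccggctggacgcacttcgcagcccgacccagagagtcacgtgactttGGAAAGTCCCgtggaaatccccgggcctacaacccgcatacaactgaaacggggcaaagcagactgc
NFKBIA (chr14:35404750-35404899, minus strand): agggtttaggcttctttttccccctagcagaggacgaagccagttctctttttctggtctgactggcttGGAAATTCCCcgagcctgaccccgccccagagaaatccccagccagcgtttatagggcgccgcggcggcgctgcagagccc
NFKB1 (chr4:102501209-102501358, plus strand): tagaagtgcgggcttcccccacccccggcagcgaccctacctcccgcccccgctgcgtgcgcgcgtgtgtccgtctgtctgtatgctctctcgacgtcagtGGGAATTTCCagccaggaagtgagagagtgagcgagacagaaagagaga
CXCL1 (chr4:73869243-73869392, plus strand): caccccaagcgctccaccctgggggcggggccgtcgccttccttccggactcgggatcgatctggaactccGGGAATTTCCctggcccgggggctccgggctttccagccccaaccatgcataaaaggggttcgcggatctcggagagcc
IL6 (chr7:22727050-22727199, plus strand): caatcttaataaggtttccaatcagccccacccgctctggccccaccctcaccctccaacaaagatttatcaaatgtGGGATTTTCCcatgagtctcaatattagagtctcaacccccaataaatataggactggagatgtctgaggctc
ICAM1 (chr19:10270970-10271119, plus strand): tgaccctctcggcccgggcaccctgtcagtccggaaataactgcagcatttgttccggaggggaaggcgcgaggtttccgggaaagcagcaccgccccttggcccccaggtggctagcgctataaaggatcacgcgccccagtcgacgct
The matches began 67 bases before the start in TNFAIP3, 81 in NFKBIA, 49 in NFKB1, 79 in CXCL1 and 73 in IL6. In TNFAIP3 and NFKBIA they lay on the opposite strand. A match describes letters only; binding was not measured here.

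Levels are given in TMM-scaled CPM, the share of a library's counts, on 1 scale of all 24 libraries, as mean ± SD of 3 replicates. As each library pools many cells, fewer expressing cells and less RNA per cell cannot be told apart. Such shares are also relative, so they do not give the amount of RNA per cell. Fold changes, all log2, carry their standard error after ± and come from edgeR fitted to all tested genes of a line (11467 in HCC1806, 11424 in MDA-MB-231). A gene rose, fell or was called when its p, adjusted by Benjamini-Hochberg over all those genes, was below 0.05. Library totals ran from 3060622 to 4030297 estimated counts in HCC1806 and from 2455707 to 3837957 in MDA-MB-231, and replicates had a biological coefficient of variation of 3.88% in HCC1806 and 5.28% in MDA-MB-231. Markers matched the labels, with KRT5 at 1135 to 1934 counts in HCC1806 libraries and at most 1 in MDA-MB-231, and VIM at most 7 in HCC1806 and at 7598 to 11262 in MDA-MB-231. The leukocyte marker PTPRC had at most 3 counts in any library, and CD3E, MS4A1 and NKG7 were at 0 in all 24, whereas the macrophage marker CD68 had 89 to 138 counts in HCC1806 libraries and 236 to 421 in MDA-MB-231. In MDA-MB-231, slippage replicate 3 and cytokinesis failure replicate 1 differed more from their fellow replicates than other libraries did, at a chi-square of 2.34 to 2.55 per degree of freedom, where other replicate pairs had 1.29 to 1.92.

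In HCC1806, cytokinesis failure went with lower TNFAIP3, RELB and NFKB1 and higher NFKBIA. The NFKB1 and NFKBIA calls were lost in DESeq2 (adjusted p = 0.0907 and 0.115) and when some single libraries were left out. In MDA-MB-231, the adhesion gene ICAM1 moved in every route, down after fusion and up after slippage and cytokinesis failure. In HCC1806, of the 9 genes tested, 2 were called against control for fusion (10.9% of all tested genes), none for slippage (3.33%) and 5 for cytokinesis failure (17.0%). In MDA-MB-231, again of 9, 1 was called for fusion (17.4% of all tested genes), 3 for slippage (6.18%) and 1 for cytokinesis failure (4.64%). The median fold change of the 9 genes in HCC1806 was -0.14 for fusion, -0.18 for slippage and -0.20 for cytokinesis failure. In MDA-MB-231 it was 0.03 for fusion, 0.33 for slippage and 0.11 for cytokinesis failure, while the median over all tested genes lay between -0.0031 and 0.0018. The filter left out IL6 in HCC1806, which had 2 counts in all 12 libraries, and CXCL1 in MDA-MB-231, which had 60. Through a single group there passed CXCL1 in HCC1806 (control) and IL6 in MDA-MB-231 (slippage). TNFAIP3 in MDA-MB-231 had 8 libraries above the filter's cutoff, though slippage was the only group with all 3 above it. CXCL1 is 1 of the genes called in HCC1806 for fusion and for cytokinesis failure. The control libraries, where it is highest, brought it into the test. IL6 entered the MDA-MB-231 medians through slippage, where it is highest. These counts and medians are therefore given as a description.

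**Figure D1:**
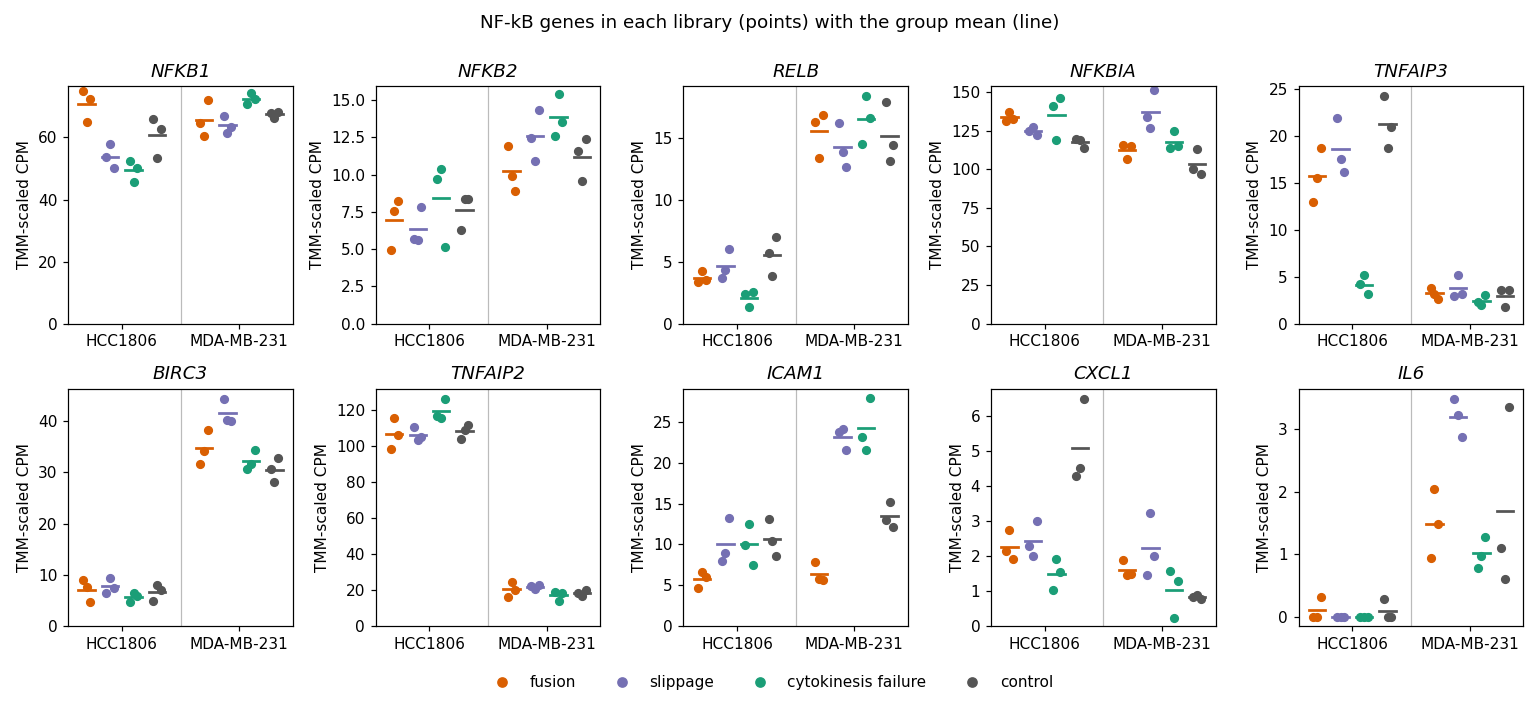
Level of each of the 10 genes in every library, in CPM, with the 4 groups of HCC1806 left of the 4 groups of MDA-MB-231 and a line at each group mean. TNFAIP3 in HCC1806 cytokinesis failure lies at 3.10 to 5.18 CPM, below all other HCC1806 libraries, and ICAM1 in MDA-MB-231 fusion lies below the other MDA-MB-231 groups.

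Among the subunits, NFKB1 encodes p105, the precursor of p50, which pairs with RELA in the canonical dimer (chromosome 4, 102501359 to 102617302, GRCh38). In HCC1806 it stood at 75.1, 65.0 and 72.4 CPM after fusion, 53.6, 57.8 and 50.2 CPM after slippage, 52.3, 45.8 and 50.2 CPM after cytokinesis failure, and 65.8, 53.5 and 62.8 CPM in control. The cytokinesis failure libraries all lay below the control libraries, whereas the slippage and control libraries overlapped. NFKB1 fell by 0.31 ± 0.09 in cytokinesis failure against control (adjusted p = 0.00944). It passed no longer without control replicate 1 (-0.25, adjusted p = 0.0909) or cytokinesis failure replicate 2 (-0.26, 0.0625), in DESeq2 (0.0907) and on log2(TPM + 1) (0.208); its adjusted p over all 12 alternatives ran from 0.00312 to 0.208. Against control, fusion gave 0.21 ± 0.09 (adjusted p = 0.100) and slippage -0.18 ± 0.09 (0.338), neither past the threshold. Between routes the fusion population was the highest, 0.40 ± 0.09 above slippage (adjusted p = 0.000891), and cytokinesis failure against fusion gave -0.52 ± 0.09 (adjusted p = 2.46e-06). On log2(TPM + 1) the fusion-slippage difference missed the threshold (adjusted p = 0.0881, with 0.000360 to 0.0881 over 12 alternatives), and the other call was kept in all 12. In MDA-MB-231 NFKB1 averaged 65.8 ± 5.83 CPM after fusion, 63.9 ± 2.82 after slippage, 72.4 ± 1.77 after cytokinesis failure and 67.4 ± 1.04 in control, with no call in any pair, although on log2(TPM + 1) cytokinesis failure against fusion was called (0.25, adjusted p = 0.0429).

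RELB, the subunit of the non-canonical dimers (chromosome 19, 45001464 to 45038192), was scarce in HCC1806. It had 3.39, 4.25 and 3.50 CPM after fusion, 3.70, 4.32 and 6.01 CPM after slippage, 2.35, 1.36 and 2.59 CPM after cytokinesis failure, and 5.70, 3.82 and 7.01 CPM in control. The 3 cytokinesis failure libraries, with 5 to 10 counts each, lay below every other HCC1806 library. RELB fell by 1.40 ± 0.35 in cytokinesis failure against control (adjusted p = 0.00218), and the call was kept in all 12 alternatives with adjusted p up to 0.0397. On log2(TPM + 1) the fold was -0.77. Cytokinesis failure against slippage gave -1.14 ± 0.37 (adjusted p = 0.0425), a call lost without slippage replicate 2 (adjusted p = 0.0758) or 3 (0.241), without any 1 of the cytokinesis failure replicates (0.0574 to 0.178), and in 4 other alternatives (0.0560 to 0.233). In MDA-MB-231 RELB was 15.5 ± 1.88 CPM after fusion, 14.3 ± 1.81 after slippage, 16.5 ± 1.92 after cytokinesis failure and 15.2 ± 2.46 in control, and no pair was called.

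NFKB2, the precursor of the non-canonical subunit p52 (chromosome 10, 102394110 to 102402529), had no call within either line. In HCC1806 it averaged 6.93 ± 1.76 CPM after fusion, 6.38 ± 1.24 after slippage, 8.40 ± 2.81 after cytokinesis failure and 7.65 ± 1.20 in control. In MDA-MB-231 it averaged 10.2 ± 1.54 CPM after fusion, 12.6 ± 1.73 after slippage, 13.8 ± 1.46 after cytokinesis failure and 11.2 ± 1.47 in control. The widest difference, cytokinesis failure over fusion in MDA-MB-231, was 0.46 ± 0.19 (adjusted p = 0.0785), and its libraries did not overlap; it was called on log2(TPM + 1) (0.0285).

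NFKBIA encodes IκBα, the inhibitor that each NF-kB response makes afresh (chromosome 14, 35401513 to 35404749). In MDA-MB-231 it had 115, 106 and 115 CPM after fusion, 134, 127 and 151 CPM after slippage, 114, 125 and 115 CPM after cytokinesis failure, and 100.2, 113 and 96.7 CPM in control. The slippage libraries all lay above the controls and above the fusion libraries. NFKBIA rose by 0.41 ± 0.07 in slippage against control (adjusted p = 0.000222), a call lost on log2(TPM + 1) (0.0604) and kept in the other 12 alternatives. Fusion against slippage gave -0.29 ± 0.07 (adjusted p = 0.00393), kept in all 13. In HCC1806 the levels were 131, 137 and 133 CPM after fusion, 125, 128 and 122 CPM after slippage, 141, 119 and 146 CPM after cytokinesis failure, and 119.7, 119 and 114 CPM in control. NFKBIA rose by 0.20 ± 0.06 in cytokinesis failure against control (adjusted p = 0.0178), with the groups overlapping through the second cytokinesis failure library. It missed the threshold without control replicate 3 (adjusted p = 0.0916), cytokinesis failure replicate 1 (0.105) or 3 (0.170), and in DESeq2 (0.115); adjusted p over 12 alternatives ran from 0.00155 to 0.170. The fusion libraries did not overlap with control, at 0.19 ± 0.07 and adjusted p = 0.0522, which passed with only the groups compared in the fit (0.0339).

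TNFAIP3 encodes A20, the ubiquitin-editing enzyme that shuts off signalling upstream of IKK (chromosome 6, 137866349 to 137883312). Its level in HCC1806 was 12.9, 15.5 and 18.7 CPM after fusion, 21.9, 17.6 and 16.2 CPM after slippage, 4.19, 5.18 and 3.10 CPM after cytokinesis failure, and 24.2, 18.8 and 21.0 CPM in control. The 3 cytokinesis failure libraries, at 12 to 19 counts, lay below the other 9, which had 42 to 85. The fold of cytokinesis failure against fusion was -1.92 ± 0.23 (adjusted p = 6.41e-11), and against slippage it was -2.17 ± 0.22 (4.23e-13). With the fold against control of -2.37 ± 0.21 (adjusted p = 4.74e-16), TNFAIP3 was called in all 3 comparisons with that population, and in all 12 alternatives of each. Over those alternatives the fold against control ran from -2.55 to -1.52, the last on log2(TPM + 1). Fusion against control gave -0.45 ± 0.17 (adjusted p = 0.0673) with no overlap of libraries, and it was called without fusion replicate 3 (-0.59, 0.0338). Slippage against control gave -0.20 ± 0.16 (adjusted p = 0.644).

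In MDA-MB-231 TNFAIP3 was near the detection filter, with 6 to 21 counts per library. It averaged 3.21 ± 0.55 CPM after fusion, 3.76 ± 1.27 after slippage, 2.46 ± 0.56 after cytokinesis failure and 3.00 ± 1.04 in control, and all groups overlapped with control. No pair was called, and the fold for cytokinesis failure against control was -0.29 ± 0.39 (adjusted p = 0.764). The difference between the lines in the cytokinesis failure fold, HCC1806 less MDA-MB-231, was itself tested in a fit of all 24 libraries and was -2.07 ± 0.46 (adjusted p = 0.00112). This difference was kept in all 19 alternatives, with adjusted p up to 0.0260. Among the tested genes of HCC1806 that averaged 2 or more in log2 CPM, the 5 whose log2 CPM followed TNFAIP3 most closely over the 12 libraries were CD59 (Pearson r = 0.966), TNS4 (0.961), ALCAM (0.957), PLIN2 (0.956) and CD3EAP (0.953). The r values describe 12 libraries that fall into 4 groups; TNS4, for example, averaged 17.4 CPM in cytokinesis failure and 44.2 CPM in control. In MDA-MB-231 the 5 were FBXL2 (0.893), PJA1 (0.854), MNAT1 (0.801), SGSM3 (0.798) and BPHL (0.785), at TNFAIP3 counts where sampling noise is large.

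BIRC3 encodes cIAP2, a ubiquitin ligase that both transmits TNF receptor signals and limits the non-canonical kinase NIK (chromosome 11, 102317484 to 102339403). In MDA-MB-231 it had 31.7, 34.1 and 38.3 CPM after fusion, 44.3, 40.2 and 40.0 CPM after slippage, 30.6, 31.6 and 34.3 CPM after cytokinesis failure, and 30.6, 28.1 and 32.8 CPM in control. The slippage libraries lay above all others of the line. BIRC3 rose by 0.44 ± 0.11 in slippage against control (adjusted p = 0.0108); it was no longer called without control replicate 2 (adjusted p = 0.0778) or slippage replicate 1 (0.0534), in DESeq2 (0.0757) and on log2(TPM + 1) (0.123), within a range of 0.00907 to 0.123 over 13 alternatives. Cytokinesis failure against slippage gave -0.36 ± 0.11 (adjusted p = 0.0659). In HCC1806 BIRC3 averaged 7.10 ± 2.13 CPM after fusion, 7.79 ± 1.39 after slippage, 5.73 ± 0.93 after cytokinesis failure and 6.61 ± 1.61 in control, with no call.

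Of the targets, ICAM1, the ligand on cell surfaces for leukocyte integrins, gave the clearest pattern in MDA-MB-231 (chromosome 19, 10271120 to 10286615). It had 7.84, 5.83 and 5.64 CPM after fusion, 23.8, 24.1 and 21.6 CPM after slippage, 23.2, 21.6 and 27.9 CPM after cytokinesis failure, and 12.9, 15.2 and 12.2 CPM in control. Fusion lay below control and both other routes lay above it, with no overlap, while slippage and cytokinesis failure overlapped. ICAM1 fell by 1.06 ± 0.21 in fusion (adjusted p = 0.000243), rose by 0.79 ± 0.16 in slippage (0.000840) and rose by 0.86 ± 0.16 in cytokinesis failure (0.000289). Fusion against slippage gave -1.85 ± 0.19 (adjusted p = 7.07e-10), and cytokinesis failure against fusion gave 1.92 ± 0.19 (1.24e-10). These 5 calls were kept in every alternative tried, which includes leaving out each library, with adjusted p up to 0.0235. Cytokinesis failure against slippage gave 0.07 ± 0.14 (adjusted p = 0.887).

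In HCC1806 ICAM1 was 4.62, 6.68 and 6.04 CPM after fusion, 7.98, 8.97 and 13.2 CPM after slippage, 9.94, 12.5 and 7.50 CPM after cytokinesis failure, and 13.1, 10.4 and 8.62 CPM in control. Only the fusion libraries lay wholly below control. ICAM1 fell by 0.88 ± 0.25 in fusion against control (adjusted p = 0.00900), a call lost without control replicate 1 (adjusted p = 0.110) or fusion replicate 1 (0.0772), in DESeq2 (0.0829) and on log2(TPM + 1) (0.0548), with a range of 0.00481 to 0.110 over 12 alternatives. Fusion against slippage gave -0.80 ± 0.25 (adjusted p = 0.0282), lost without fusion replicate 1 (0.155) or 3 (0.0618), without slippage replicate 3 (0.273), in DESeq2 (0.172) and on log2(TPM + 1) (0.122). Cytokinesis failure was 0.78 ± 0.24 above fusion (adjusted p = 0.0160), lost without fusion replicate 1 (0.107) or cytokinesis failure replicate 2 (0.146) and in DESeq2 (0.105). The fusion folds of the lines, -0.88 in HCC1806 and -1.06 in MDA-MB-231, had a difference of 0.17 ± 0.34 (adjusted p = 0.829). The slippage folds differed by -0.88 ± 0.27 (adjusted p = 0.0525), called in 5 of 19 alternatives (0.0167 to 0.0496). The cytokinesis failure folds differed by -0.96 ± 0.27 (adjusted p = 0.0155), lost without HCC1806 control replicate 1 (0.123), HCC1806 cytokinesis failure replicate 3 (0.0825) or MDA-MB-231 cytokinesis failure replicate 3 (0.0624) and in DESeq2 (0.0705).

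CXCL1 is a chemokine that draws neutrophils (chromosome 4, 73869393 to 73871308). It has close paralogues in CXCL2 and CXCL3, so its counts may depend on how reads were shared among them, which was not tested. In HCC1806 it had 2.16, 2.73 and 1.91 CPM after fusion, 2.28, 1.99 and 3.00 CPM after slippage, 1.05, 1.91 and 1.55 CPM after cytokinesis failure, and 4.28, 4.52 and 6.47 CPM in control. These are 4 to 10 counts per doubled library and 13 to 24 per control library, and no doubled library reached the lowest control. It was tested only because its 3 control libraries, where it is highest, passed the filter, so its folds are a description of this gene and are not counted as support for the others. CXCL1 fell by 1.76 ± 0.39 in cytokinesis failure (adjusted p = 0.000499; 0.000445 in a fit with no filter), kept in all 12 alternatives with adjusted p up to 0.0147. It fell by 1.16 ± 0.37 in fusion (adjusted p = 0.0287; 0.0413 with no filter), lost without control replicate 3 (0.197), fusion replicate 1 (0.0911) or 3 (0.106) and in DESeq2 (0.190), in a range of 0.00744 to 0.197. Slippage gave -1.06 ± 0.37 (adjusted p = 0.100) and was called on log2(TPM + 1) alone (0.0412).

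In MDA-MB-231 CXCL1 had 1 to 13 counts per library, at 1.61 ± 0.24 CPM after fusion, 2.23 ± 0.91 after slippage, 1.03 ± 0.70 after cytokinesis failure and 0.832 ± 0.06 in control. IL6, the acute-phase cytokine (chromosome 7, 22727200 to 22731998), was likewise near the floor there. It had 0.941, 2.04 and 1.48 CPM after fusion, 3.48, 3.23 and 2.87 CPM after slippage, 0.785, 0.980 and 1.28 CPM after cytokinesis failure, and 1.10, 0.597 and 3.36 CPM in control. The slippage libraries exceeded the other doubled libraries, while control replicate 3 stood among them. As IL6 was tested only because slippage, where it is highest, passed the filter, its folds are a description. In slippage against control IL6 gave 0.86 ± 0.45 (adjusted p = 0.294), and 1.85 without control replicate 3 (adjusted p = 0.0474). Cytokinesis failure against slippage gave -1.58 ± 0.50 (adjusted p = 0.0724). TNFAIP2, a TNF-induced gene linked to membrane protrusions (chromosome 14, 103121469 to 103137439), had no call in either line; cytokinesis failure against fusion in HCC1806 was called without fusion replicate 2 (0.22, adjusted p = 0.0315). It averaged 107 ± 8.88 CPM after fusion, 106 ± 3.92 after slippage, 119.7 ± 5.99 after cytokinesis failure and 108 ± 3.96 in control of HCC1806, and 17.4 to 22.0 CPM on average in the 4 groups of MDA-MB-231.

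**Figure D2:**
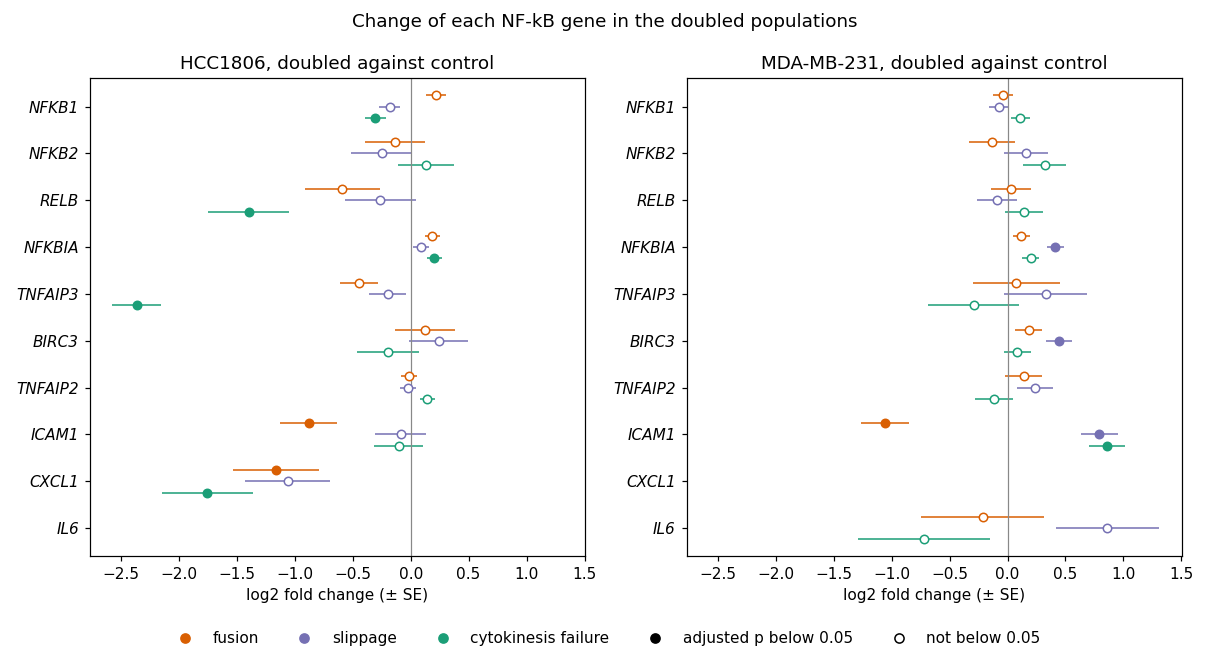
Log2 fold change of each gene against control with its standard error, in HCC1806 and in MDA-MB-231, by route, filled where adjusted p was below 0.05. In HCC1806 cytokinesis failure TNFAIP3 lies at -2.37, CXCL1 at -1.76 and RELB at -1.40, while in MDA-MB-231 ICAM1 lies at -1.06 for fusion, 0.79 for slippage and 0.86 for cytokinesis failure.

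Between routes of a line, in HCC1806 2 of the 9 genes were called for fusion against slippage (9.23% of all tested genes), 3 for cytokinesis failure against fusion (17.9%) and 2 for cytokinesis failure against slippage (6.80%). In MDA-MB-231, 2 were called for fusion against slippage (17.1% of all tested genes), 1 for cytokinesis failure against fusion (24.5%) and none for cytokinesis failure against slippage (3.18%). For MDA-MB-231 cytokinesis failure against slippage, edgeR gave 5 of the 9 an unadjusted p below 0.05, as it did 15.2% of all tested genes. By adjusted p, edgeR, DESeq2 and limma all called none of the 9. For HCC1806 slippage against control, edgeR gave 2 of the 9 an unadjusted p below 0.05, beside 14.4% of all tested genes. By adjusted p, edgeR and DESeq2 called none there and limma called CXCL1.

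The lines' responses were compared gene by gene as HCC1806 fold less MDA-MB-231 fold, over 12563 genes. Of the 10 genes, 1 was called for fusion (6.57% of all tested genes called in this direction), 1 for slippage (1.88%) and 4 for cytokinesis failure (3.22%), all with the lower fold in HCC1806. Beside TNFAIP3 and ICAM1, RELB differed for cytokinesis failure by -1.54 ± 0.37 (adjusted p = 0.00342), kept in all 19 alternatives with adjusted p up to 0.0430. NFKB1 differed by -0.41 ± 0.12 (adjusted p = 0.0261), a call lost without HCC1806 control replicate 1 (0.114) or 3 (0.0713), HCC1806 cytokinesis failure replicate 2 (0.0966), MDA-MB-231 control replicate 2 (0.0563) or MDA-MB-231 cytokinesis failure replicate 2 (0.0612), in DESeq2 (0.0864) and on log2(TPM + 1) (0.172). CXCL1 differed by -2.08 ± 0.70 for fusion (adjusted p = 0.0356) and -2.48 ± 0.65 for slippage (0.0133). These 2 are given as a description: CXCL1 entered the fit of both lines through HCC1806 control alone, and the MDA-MB-231 libraries of these routes and control held 3 to 13 counts each. With no filter the adjusted p was 0.0619 for fusion and 0.0182 for slippage. In DESeq2 both CXCL1 differences were lost (adjusted p = 0.115 for fusion and 0.0860 for slippage). The fusion difference was also lost without any 1 of 9 libraries (all but HCC1806 control replicates 1 and 2 and fusion replicate 2; adjusted p 0.0540 to 0.0950), and the slippage one without HCC1806 control replicate 3 (0.0531) or MDA-MB-231 slippage replicate 2 (0.107).

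**Figure D3:**
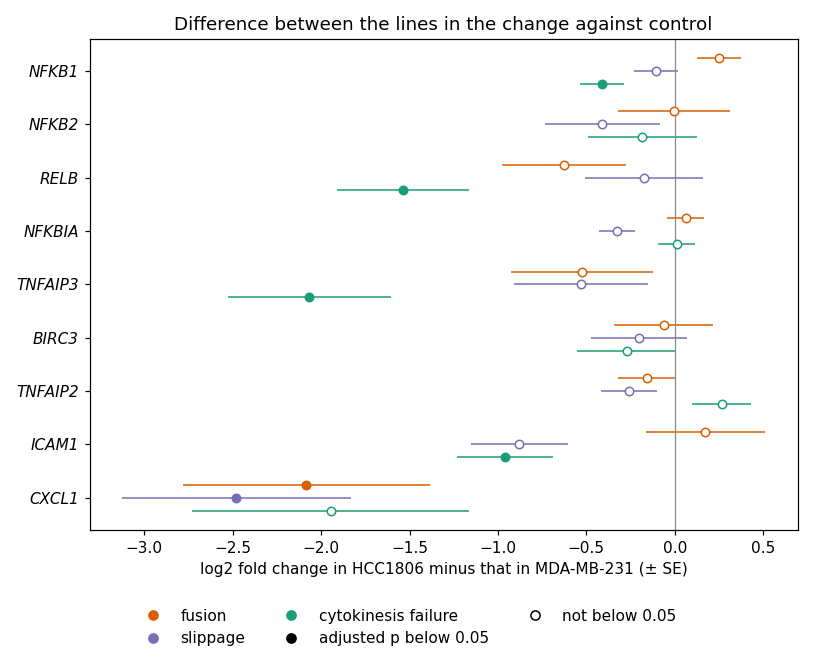
Difference of the log2 fold change against control, HCC1806 less MDA-MB-231, with its standard error, for 9 of the genes and the 3 routes, filled where adjusted p was below 0.05. TNFAIP3 and RELB for cytokinesis failure lie at -2.07 and -1.54, and TNFAIP2 lies between -0.26 and 0.27.

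The lines also differed before doubling, and 8 of the 10 genes were called between controls, where 76.2% of all tested genes were. TNFAIP3 averaged 21.3 ± 2.75 CPM in HCC1806 control and 3.00 ± 1.04 in MDA-MB-231 control, a fold of 2.80 ± 0.24 (adjusted p = 3.52e-18). TNFAIP2 averaged 108 ± 3.96 CPM in HCC1806 control and 18.5 ± 1.73 in MDA-MB-231 control (2.54 ± 0.10, adjusted p = 1.67e-37), while CXCL1, which passed the filter through HCC1806 control alone, gave 2.58 ± 0.46 (5.40e-07; 3.26e-07 with no filter). BIRC3 ran the other way, at 6.61 ± 1.61 CPM in HCC1806 control and 30.5 ± 2.39 in MDA-MB-231 control (-2.22 ± 0.18, adjusted p = 8.95e-20). RELB was also lower in HCC1806 control, at 5.51 ± 1.60 CPM against 15.2 ± 2.46 in MDA-MB-231 control (-1.43 ± 0.22, adjusted p = 1.63e-08). IL6 had 1 count in the 3 HCC1806 controls together, and 2, 4 and 13 counts in those of MDA-MB-231. The smaller differences of NFKBIA (0.19 ± 0.07, adjusted p = 0.0182) and NFKB2 (-0.56 ± 0.22, 0.0213) were lost in some alternatives. NFKBIA lost its call without HCC1806 control replicate 1 (0.0567), MDA-MB-231 control replicate 1 (0.0657) or 3 (0.116) and on log2(TPM + 1) (0.769), and NFKB2 without HCC1806 control replicate 1 (0.117) or MDA-MB-231 control replicate 3 (0.0884) and in DESeq2 (0.0610). NFKB1 and ICAM1 were not called between controls (NFKB1 -0.14 ± 0.09, adjusted p = 0.126; ICAM1 -0.32 ± 0.20, 0.135). On log2(TPM + 1) both were called (NFKB1 -0.30, 0.00725; ICAM1 -0.38, 0.0348), and ICAM1 also without HCC1806 control replicate 1 (-0.50, 0.0436). HCC1806 cytokinesis failure had TNFAIP3 at 4.16 ± 1.04 CPM beside the 3.00 ± 1.04 CPM of MDA-MB-231 control.

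Further genes of the pathway were read from 4 lists. Among 7 other subunits and inhibitors, 6 were tested in each line. NFKBIB (IκBβ) alone was called against control, in HCC1806 fusion, where 10.9% of all tested genes were called. Its fold there was -0.35 ± 0.07 (78.6 ± 6.37 CPM against 100.9 ± 4.20 in control, adjusted p = 0.000255). The other comparisons with control, with 3.33% to 17.4% of all tested genes called, gave no call in this list. Of 28 kinases, receptors and adaptors, 26 were tested in HCC1806 and 28 in MDA-MB-231. In HCC1806 none was called for fusion (10.9% of all tested genes), 1 fell for slippage (3.33% called), and 2 rose and 3 fell for cytokinesis failure (17.0% called). The receptor TNFRSF12A (Fn14) fell by 0.20 ± 0.05 in slippage (adjusted p = 0.0109) and by 0.42 ± 0.05 in cytokinesis failure (184 ± 9.15 CPM against 246 ± 6.47 in control, 4.40e-10). The adaptor TRAF2 rose by 0.42 ± 0.14 (adjusted p = 0.0190) and MYD88 fell by 0.51 ± 0.17 (0.0234) in cytokinesis failure. In MDA-MB-231, MAP3K14, which encodes NIK, fell by 0.61 ± 0.14 in fusion (adjusted p = 0.00167) and by 0.51 ± 0.14 in cytokinesis failure (0.0207), IKBKG, the IKK scaffold, fell by 0.37 ± 0.12 in fusion (0.0284), and none was called for slippage, where 17.4% of all tested genes were called for fusion, 6.18% for slippage and 4.64% for cytokinesis failure. Of 9 other feedback genes, 7 and 8 were tested in HCC1806 and MDA-MB-231. FAM105B (OTULIN, a deubiquitinase of linear chains) alone was called against control, in HCC1806 fusion (10.9% of all tested genes called). Its fold was -0.34 ± 0.10 (adjusted p = 0.0176). None was called in the other comparisons with control, where the shares of all tested genes were 3.33% to 17.4%.

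Of the 30 other targets, 12 were tested in HCC1806, and each one called there against control was lower. For fusion 5 fell (5.55% of all tested genes), for slippage 5 (1.81%) and for cytokinesis failure 7 (8.63%). Among those not called, C3 gave 0.68 ± 0.33 (adjusted p = 0.203) and IL1B 0.31 ± 0.27 (0.550) in fusion. The list's median fold was -0.06 for fusion, -0.32 for slippage and -0.87 for cytokinesis failure. As the list was chosen with earlier results of these data known, these counts and medians are given as a description. In cytokinesis failure SERPINB2, a plasminogen activator inhibitor, stood at 8.73 ± 1.53 CPM against 47.4 ± 0.53 CPM in control. PTGS2, the inducible prostaglandin synthase, stood at 4.76 ± 0.39 CPM against 21.8 ± 3.72 in control, and the immediate early gene IER3 at 193 ± 19.5 CPM against 355 ± 11.2 in control. All 3 fell, with folds of -2.44 ± 0.15 for SERPINB2 (adjusted p = 1.86e-25), -2.18 ± 0.20 for PTGS2 (5.56e-15) and -0.88 ± 0.05 for IER3 (2.59e-23). In slippage the folds were -0.75 ± 0.11 for PLAU, the urokinase gene (adjusted p = 1.60e-06), -0.74 ± 0.12 for SERPINB2 (5.86e-06) and -0.29 ± 0.05 for IER3 (8.81e-05). In fusion they were -1.11 ± 0.18 for PTGS2 (adjusted p = 2.59e-06), -0.35 ± 0.11 for PLAU (0.0204) and -0.32 ± 0.10 for BCL2L1, the survival gene of BCL-XL (0.0173). Several of these genes also respond to other pathways. In MDA-MB-231 9 were tested, and none was called in fusion (17.4% of all tested genes called) or slippage (6.18%). PLAU alone was called in cytokinesis failure (4.64% called). It fell by 0.19 ± 0.05 (300.3 ± 9.07 CPM against 344 ± 10.7 in control, adjusted p = 0.0272). The differences between lines were called for 3 of 14 targets for fusion, 4 for slippage and 5 for cytokinesis failure, all with the lower fold in HCC1806, beside 6.57%, 1.88% and 3.22% of all tested genes. Some of these targets were near 0 in MDA-MB-231, whose control averaged 0.178 ± 0.15 CPM of IL1B and 0.622 ± 0.58 CPM of PTGS2. Both were among those called for slippage and cytokinesis failure, and HCC1806 control averaged 5.78 ± 1.3 and 21.8 ± 3.72 CPM of them. Such genes could enter the fit of both lines through HCC1806, where they are high, with little room to fall in MDA-MB-231. These counts of line differences are therefore given as a description.

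**Figure D4:**
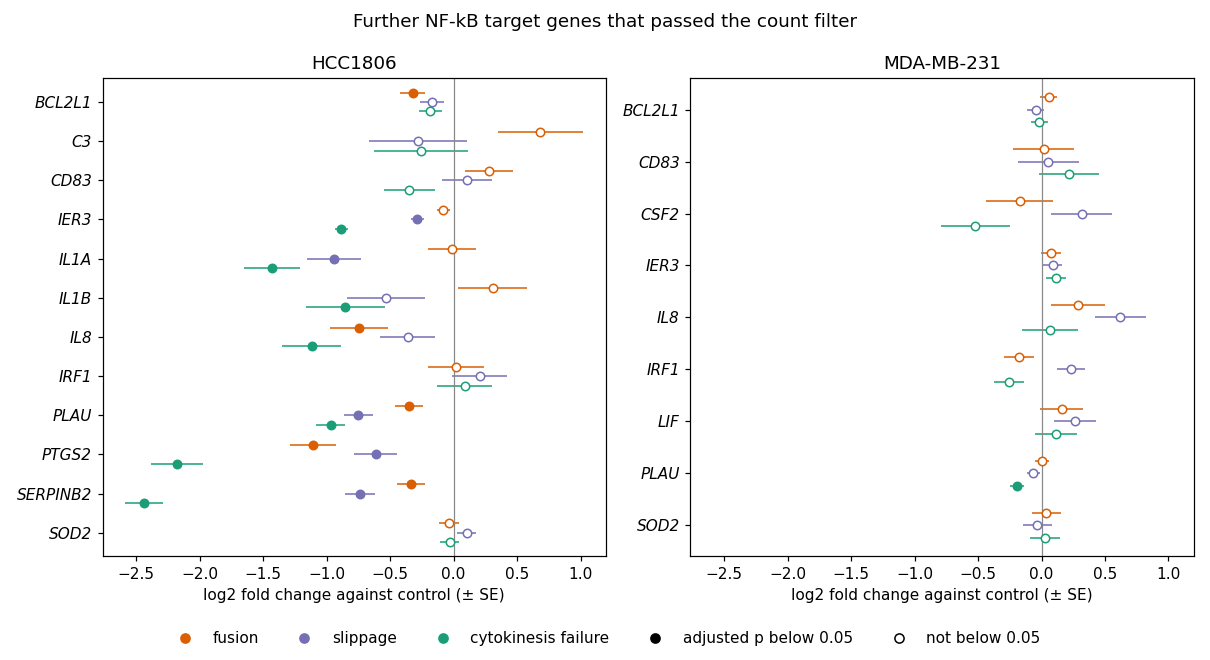
Log2 fold change against control with its standard error for the other tested NF-kB targets, 12 in HCC1806 and 9 in MDA-MB-231, filled where adjusted p was below 0.05. The called genes of HCC1806 lie left of 0 in all 3 routes, down to -2.44 for SERPINB2 in cytokinesis failure.

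Values that moved beside these results were read too. The other tested genes on the chromosome of each of the 10 had median folds against control between -0.11 and 0.09 in both lines. On chromosome 6 the median in HCC1806 cytokinesis failure was 0.02 over 590 genes beside TNFAIP3, on chromosome 4 it was -0.11 over 388 genes beside NFKB1 and CXCL1, and on chromosome 19 in MDA-MB-231 it was -0.03 to 0.03 over 761 genes beside ICAM1. NFKB1, at -0.31, lay at the lower quartile of its chromosome, which was also -0.31. The summed CPM of 6 basal epithelial markers was 1347 to 1412 in HCC1806 cytokinesis failure, 1412 to 1463 in slippage and 1427 to 1486 in fusion, against 1568 to 1673 in control. The sum of 10 immune markers was 26.4 to 31.1 in HCC1806 cytokinesis failure against 36.8 to 39.3 in control, and 87.5 to 119.8 over the MDA-MB-231 doubled libraries against 65.7 to 74.1 in control, although CD3E, MS4A1 and NKG7 were at 0. In each group 5 to 7 of the 10 were at 0, and PTPRC had at most 3 counts. CD68, with 89 to 138 counts in HCC1806 libraries and 236 to 421 in MDA-MB-231, was part of this sum, which was not split by gene. The summed CPM of 5 mesenchymal markers in HCC1806 was 32.8 to 40.0 in fusion, 49.0 to 54.1 in slippage and 51.8 to 56.8 in cytokinesis failure, against 67.0 to 68.4 in control. That of 4 endothelial markers in MDA-MB-231 was 4.71 to 7.71 in fusion, 2.61 to 6.90 in slippage and 5.11 to 7.59 in cytokinesis failure, against 2.33 to 3.58 in control. The part of these shifts in the results above was not tested.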

How the data were processed

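RNA of 24 libraries was read by TAGseq, per the labels' protocols. The submitters' processing notes name STAR, Salmon and the build GRCh38, with no versions; annotation, strand setting and duplicate removal are not given in the sources used here. The deposited tables hold estimated counts from Salmon, of which 4.41% were not whole, and TPM. Low-pass genome sequencing was not analysed here.

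Estimated counts were rounded and tested in R 4.3.3 with edgeR 4.0.16 (filterByExpr with a minimum count of 10, TMM, robust quasi-likelihood F-tests), each line apart on 12 libraries and line differences on 24. Calls used Benjamini-Hochberg adjusted p below 0.05. Alternatives were RLE factors, no filter, DESeq2 1.42.0 without independent filtering, limma 3.58.1 on log2(TPM + 1), only the groups compared, each replicate left out, a replicate block, and, added after seeing the data, leaving out the 2 noisier MDA-MB-231 libraries. The fits were tested on simulated data. The 10 genes, the lists and the rule for named genes (the 3 called genes of smallest adjusted p per list, and the 5 genes most correlated with TNFAIP3) were chosen with earlier results of these data known. p-values cover spread between replicates of 1 population, not between independently derived populations.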

Additional observations from a re-analysis of the deposited data

Results flagged for a closer look

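Flagged for a closer look were 6 line differences, called by the test of the difference itself (HCC1806 fold less MDA-MB-231 fold, log2). Route and derived population cannot be told apart in them. For cytokinesis failure the differences were TNFAIP3 (-2.07), RELB (-1.54), ICAM1 (-0.96) and NFKB1 (-0.41). TNFAIP3 held 6 to 14 counts in each MDA-MB-231 control library and 6 to 12 in each cytokinesis failure library. The ICAM1 and NFKB1 differences were lost in several alternatives, DESeq2 among them (adjusted p = 0.0705 and 0.0864). For CXCL1 the fusion (-2.08) and slippage (-2.48) differences were flagged, both lost in DESeq2 (0.115 and 0.0860). They rest on 3 to 13 counts in each MDA-MB-231 library of these routes and control. CXCL1 was tested only through HCC1806 control, where it is highest. Groups of 3 were not screened for single outlying samples.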

How the results depend on the processing

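Numbers of the 10 genes called changed by over 1.5 times as follows. DESeq2 called 0 for HCC1806 fusion against control, 3 for cytokinesis failure against control, 1 for fusion against slippage, 1 for cytokinesis failure against slippage, and 0, 0 and 2 for the line differences of fusion, slippage and cytokinesis failure. On log2(TPM + 1), limma called 1 for HCC1806 fusion against control, 1 for slippage against control, 0 for fusion against slippage and 1 for cytokinesis failure against slippage, and in MDA-MB-231 1 for slippage against control and 3 for cytokinesis failure against fusion. Without a filter, 1 was called for HCC1806 cytokinesis failure against slippage, 0 for the fusion line difference and 2 for that of slippage, which gave 3 with RLE factors. With only the groups compared, 1 was called for HCC1806 cytokinesis failure against slippage and 3 for the slippage line difference. Without the 2 noisier libraries, 2 were called for MDA-MB-231 cytokinesis failure against control and 2 for the slippage line difference.

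With 1 library left out, calls in HCC1806 ran from 0 to 2 for fusion and 4 to 5 for cytokinesis failure against control, 1 to 2 for fusion against slippage, 2 to 4 for cytokinesis failure against fusion and 1 to 2 against slippage. They ran from 2 to 4 for MDA-MB-231 slippage against control, 6 to 8 between the controls, and 0 to 1, 1 to 2 and 2 to 4 for the line differences of fusion, slippage and cytokinesis failure; elsewhere the count did not move. Apart from calls, 1849 of 2021 single-gene values kept direction and side of the threshold, 71 lost and 23 gained a call, 78 uncalled values changed sign, and no called value did.

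The replicate numbers did not pair the libraries (correlations of same-numbered deviations from -0.191 to 0.0884), and the replicate block changed no call of the 10 genes: it gave 2 and 5 for HCC1806 fusion and cytokinesis failure against control, and 1, 3 and 1 for MDA-MB-231 fusion, slippage and cytokinesis failure.

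Over all tested genes, DESeq2 called 621 for HCC1806 fusion, 139 for slippage and 975 for cytokinesis failure against control, where edgeR called 1247, 382 and 1950. In MDA-MB-231 DESeq2 called 1197, 319 and 270, where edgeR called 1993, 706 and 530. The log2(TPM + 1) scale shifted the balance of directions, to 853 higher and 453 lower for HCC1806 cytokinesis failure (960 and 990 in edgeR), 234 and 472 for HCC1806 fusion (611 and 636), 21 and 67 for HCC1806 slippage (175 and 207), and 312 and 1394 for MDA-MB-231 fusion (1067 and 926). Its median over all genes was -0.11 in MDA-MB-231 fusion, beside which ICAM1 kept its call. The cause was not tested. Depth limits TNFAIP3, CXCL1 and IL6 in MDA-MB-231 and RELB, CXCL1 and IL6 in HCC1806, where a change was detectable only if large.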
